A study of Danio rerio with 6 samples.

Results

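Glucose enters cells through carriers of the SLC2A family. Glycolysis splits it to pyruvate, which lactate dehydrogenase can turn to lactate, and the pentose phosphate pathway draws off glucose phosphate to make NADPH and ribose. Most steps have several isoenzymes, and in mammals their balance differs between heart, skeletal muscle, brain and blood cells. A list of 34 zebrafish gene names of these pathways was searched in the count table, ignoring case and, where a name was absent, its final a or b. Of these names 28 matched, giving 29 gene identifiers among the 27456 of the table. The names pkma, pkmb, ldha, hk2, pgk1 and taldo1 matched none and are not analysed here, so pyruvate kinase M, phosphoglycerate kinase and the lactate dehydrogenase A subunit are missing from the pathway.

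The RNA came from tg(myl7::gfp) zebrafish embryos at 24 hours post fertilization (hpf), dissociated and sorted for the fluorescent protein that the promoter of the heart myosin light chain gene myl7 drives. Wildtype embryos gave 3 libraries. Embryos injected with 2 nl of a 0.7 mM morpholino (an antisense oligomer) against Gata4, a transcription factor of heart development, gave the other 3, and whether wildtype embryos received a control oligomer is not stated in the labels. Each sort used about 200 pooled embryos, every embryo of both groups carried the reporter, and whether replicates were separate clutches is not stated, so that every p-value here rests on a spread between samples that may be technical. Wildtype replicates 1 and 2 and morphant replicate 1 were prepared with the mRNA-Seq kit. The TruSeq kit was used for morphant replicates 2 and 3 and for wildtype replicate 3.

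The libraries held 12574486 to 37906530 counts. The targeted gene was not analysed here, so the labels were not checked on it. Heart genes were present in every library: MYL7 had 433 to 1004 CPM (counts per 1000000 counts, with library totals scaled by the TMM method) in wildtype and 237 to 385 CPM in morphants. Markers of other cell types were also present, and morphant replicate 2 lay apart from the other morphants in several of them. The 24 leukocyte identifiers summed to 8198, 12435 and 16921 CPM over the wildtype replicates in order, and to 1405, 14934 and 3397 CPM over the morphant replicates, and 1 of them, an MPEG1 identifier, was at 0 in a library. Skeletal muscle markers (24 identifiers, none at 0) summed to 1452 to 1955 CPM in wildtype and to 3579, 975 and 4253 CPM in morphants. Morphant replicate 1 held 8464 CPM of the 10 endoderm and liver markers, against 98.5 to 231 CPM in the other 5 libraries, where fga was at 0 in at least 1 library. In such bulk samples, fewer cells of a type and less RNA per cell cannot be told apart.

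Of the 28 genes tested, 15 had lower values in morphant replicates 1 and 3 than in any wildtype library (53.6%, against 26.7% of all genes tested). These were enzymes of glycolysis, the carrier gene SLC2A1 (ENSDARG00000007412) and PGD of the pentose phosphate pathway. RPIA and TKT of that pathway were above the wildtype range in both libraries. In morphant replicate 2 most of the 28 lay inside or above the wildtype range, as did most genes of the whole table. The glucose carrier gene SLC2A1 (ENSDARG00000001437) was the 1 gene of the 28 tested whose morphant values were all above the wildtype values (background 7.76% of all genes tested), and the hexokinase gene HK1 the 1 whose values were all below (background 5.78%). Of the 29 identifiers 28 passed the filter on low counts, the exception being ALDOC (ENSDARG00000057661) with 1 to 8 counts a library. At an adjusted p under 0.05 in edgeR's quasi-likelihood test with a term for kit, 0 of the 28 passed, where the background over all 18033 genes tested was 0.0%. The adjusted p of these genes lay between 0.393, also the lowest of any gene in the table, and 0.901. At an unadjusted p under 0.05, 3 of the 28 were higher in morphants (background 7.62%) and 2 were lower (background 4.92%). The higher ones were SLC2A1 (ENSDARG00000001437), slc2a3a and RPIA, and the lower ones GPI and PGD. DESeq2 called 1 of them, SLC2A1 (ENSDARG00000001437), as higher (background 0.682%) and 0 as lower (background 0.943%), and limma-voom called 0. Over all genes edgeR called 0, with 2261 at an unadjusted p under 0.05, DESeq2 called 293 and limma-voom 0.

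The log2 fold change (morphant minus wildtype) was negative for 17 of the 28 genes (60.7%), against 46.5% of all genes tested. Its median was -0.66 over the set and 0.07 over all genes. Scaling by library totals alone moved the median of all genes to 0.46 and that of the set to -0.31, so the distance between them was -0.73 with TMM and -0.77 with totals. The median of the set was -1.21 within the mRNA-Seq libraries and -0.15 within the TruSeq libraries. Without morphant replicate 1 it was -0.14, and without wildtype replicate 3 it was -1.18.

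**Figure D1:**
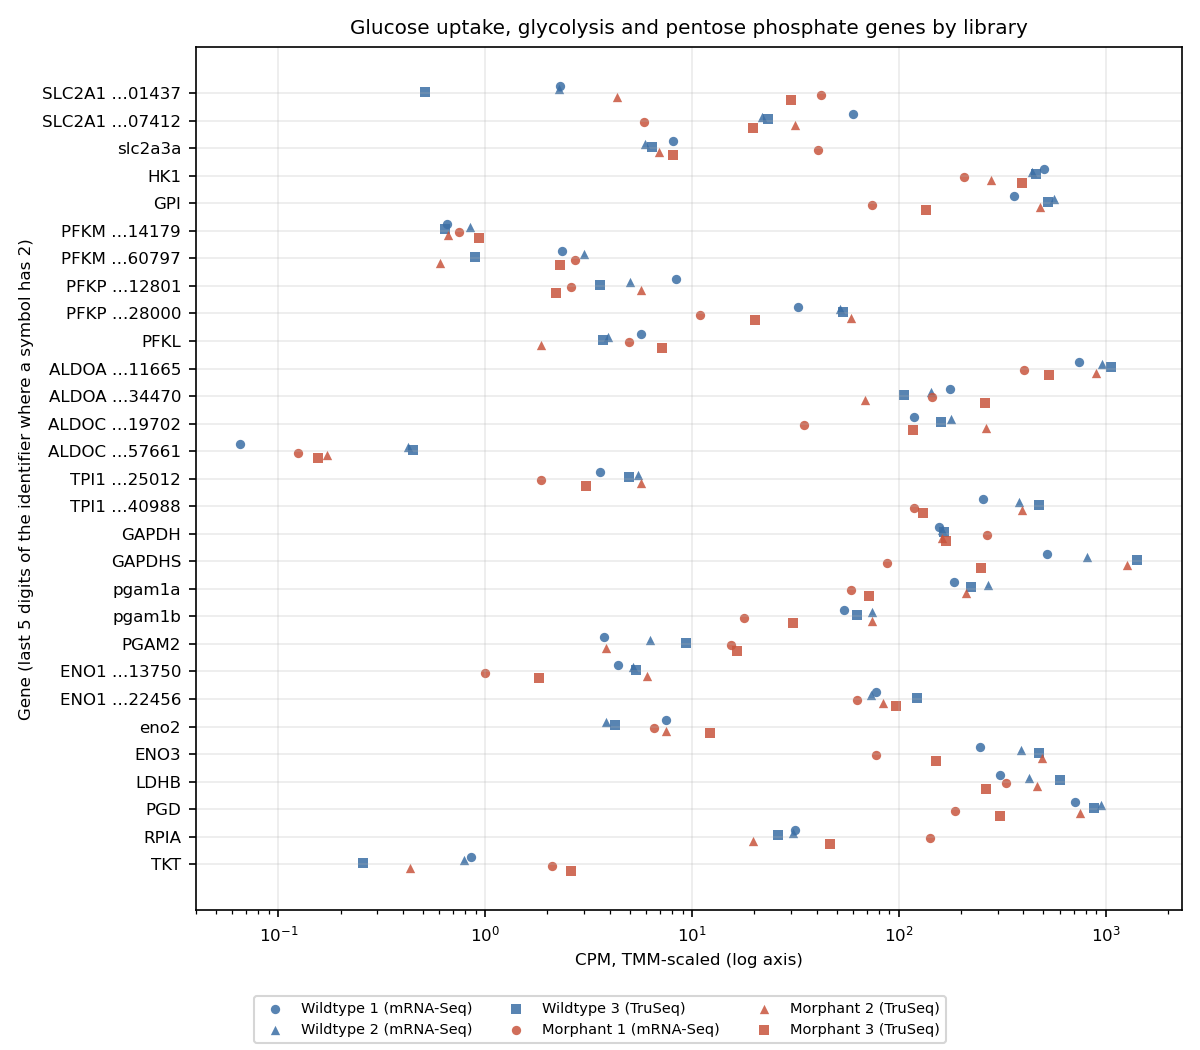
Level of each of the 29 gene identifiers in each library, as TMM-scaled CPM on a log axis (blue, wildtype; red, morphant; circle, triangle and square, replicates 1, 2 and 3). The red triangles of morphant replicate 2 lie mostly among the blue points, while 15 of the 28 genes tested had morphant replicates 1 and 3 below every wildtype library.

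The morphant libraries did not move alike. In morphant replicate 1, 16 of the 28 genes were below the wildtype range and 6 above it, and in morphant replicate 3, 16 were below and 10 above. In morphant replicate 2, 5 were below, 15 inside and 8 above. For all genes tested 36.7% were below the wildtype range and 40.5% above it in morphant replicate 1, and 34.4% below and 37.5% above in morphant replicate 3. In morphant replicate 2, 23.6% of all genes were below, 51.0% inside and 25.4% above, against 17.9%, 53.6% and 28.6% of the 28, so its position in these genes was near that background. Replicates 1 and 3 were both below it for 15 of the 28 genes (53.6%, against 26.7% of all genes), and in 14 of these 15 replicate 2 was not below, HK1 being the exception. The same held for 3764 of the 4806 genes of the whole table with both replicates below, so a replicate 2 apart from the other morphants is not a trait of these genes alone. They were both above it for 6 genes (21.4%, against 28.6%).

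Carriers of glucose stood on both sides of the comparison. SLC2A1 encodes the carrier of basal glucose uptake in mammals, and 2 identifiers have this symbol. SLC2A1 (ENSDARG00000001437) had 2.30, 2.27 and 0.513 CPM in the wildtype libraries, in order of replicate, against 42.1, 4.34 and 30.0 CPM in the morphant libraries, from 8 to 43 counts in wildtype and 151 to 678 counts in morphants. The groups did not overlap, and morphant replicate 2 was nearest to wildtype. The skeletal muscle sums above and the sums of neural and epidermis markers were also high in morphant replicates 1 and 3. Neural markers (22 identifiers, none at 0) summed to 386 to 515 CPM in wildtype and 1379.8, 596 and 1114 CPM in morphants. Epidermis markers (8 identifiers, none at 0) summed to 1506 to 2273 CPM in wildtype and 12636.5, 1045 and 3039 CPM in morphants. The part of these cells in the SLC2A1 value was not tested. The mean of SLC2A1 (ENSDARG00000001437) was 1.69 ± 1.02 CPM in wildtype and 25.5 ± 19.3 CPM in morphants (n = 3 each, SD), for a log2 fold change of 4.57 (SE 0.83). In edgeR its p was 0.000882 before adjustment and 0.393 after. In DESeq2 the adjusted p was 1.5e-05, and in edgeR without a filter on low counts it was 0.0154. The authors' deposited table lists this gene with an adjusted p of 6.7e-11 and a wildtype to morphant fold of 0.0708. In that table it is the only identifier of the 29 with an adjusted p under 0.05, where 2.3% of all genes are listed as higher in morphants and 0.262% as lower. The log2 fold change was 4.13 within the mRNA-Seq libraries and 4.93 within the TruSeq libraries, and lay between 3.73 and 4.96 when each library in turn was left out.

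The second identifier, SLC2A1 (ENSDARG00000007412), did not share this pattern. It had 59.8, 21.8 and 23.4 CPM in wildtype and 5.84, 31.4 and 19.8 CPM in morphants, so the groups overlapped. Its log2 fold change was -1.32 (SE 0.90), and 0.07 within the TruSeq libraries. With the counts of both SLC2A1 identifiers summed, the log2 fold change was 0.50 (SE 0.48, adjusted p = 0.580 by edgeR). The carrier gene slc2a3a, of a type that serves neurons in mammals, had 8.07, 5.92 and 6.41 CPM in wildtype and 40.7, 6.96 and 8.13 CPM in morphants. Morphant replicate 1 alone was far above the rest. The sums of neural, epidermis, and endoderm and liver markers were all highest in that library. Neural markers summed to 1379.8 CPM there and 1114 CPM in morphant replicate 3, and endoderm and liver markers to 8464 and 130 CPM. The part of those cells in this value was not tested. The log2 fold change of slc2a3a was 1.40 (SE 0.56, adjusted p = 0.393 by edgeR) and 0.16 within the TruSeq libraries.

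**Figure D2:**
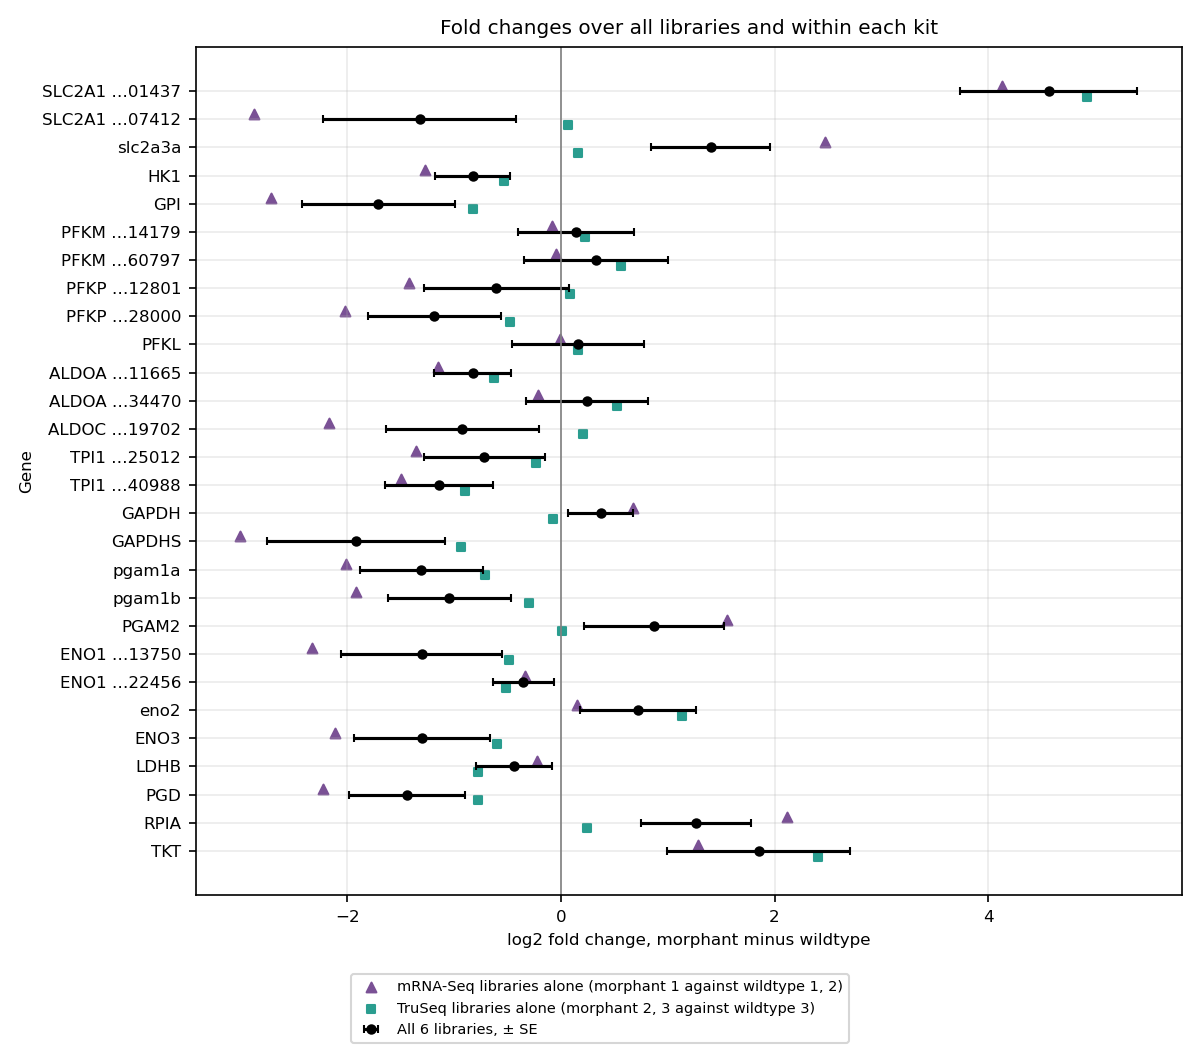
Log2 fold change, morphant minus wildtype, of the 28 genes tested: black points with SE over all 6 libraries, triangles for the mRNA-Seq libraries alone and squares for the TruSeq libraries alone. SLC2A1 (ENSDARG00000001437) lies at 4.57, 4.13 and 4.93 in these fits, while GAPDHS lies at -1.91, -3.00 and -0.93.

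The first enzymes of glycolysis trap and rearrange glucose as hexose phosphates. HK1, the hexokinase that phosphorylates glucose on entry, had 503, 441 and 459.7 CPM in wildtype and 206, 279 and 394 CPM in morphants. Every morphant library was below every wildtype library. The mean was 468 ± 32.0 CPM in wildtype and 293 ± 94.8 CPM in morphants (n = 3 each, SD), for a log2 fold change of -0.82 (SE 0.35, adjusted p = 0.393 by edgeR). GPI, the glucose phosphate isomerase, had 360.1, 563 and 528 CPM in wildtype and 74.0, 479.9 and 135 CPM in morphants, with morphant replicate 2 inside the wildtype range. Its log2 fold change was -1.71 (SE 0.72, adjusted p = 0.393 by edgeR), -2.71 within the mRNA-Seq and -0.82 within the TruSeq libraries.

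Phosphofructokinase, the committed step, was carried mainly by 1 identifier. PFKP (ENSDARG00000028000), named for the platelet type of mammals, had 32.6, 51.7 and 53.5 CPM in wildtype and 10.9, 58.9 and 20.2 CPM in morphants. Its log2 fold change was -1.18 (SE 0.62), with morphant replicate 2 above the wildtype range. Per length it had 9.72 ± 2.66 RPKM (the authors' values, scaled by gene length and library size) in wildtype, against 0.213 to 0.626 RPKM for the other 4 phosphofructokinase identifiers (SD, n = 3). Of those, PFKL, the liver type, had 5.64, 3.91 and 3.72 CPM in wildtype and 4.97, 1.87 and 7.14 CPM in morphants. PFKM (ENSDARG00000060797), the muscle type, had 2.36, 3.01 and 0.897 CPM in wildtype and 2.73, 0.604 and 2.29 CPM in morphants. The groups overlapped in both, the log2 fold changes being 0.16 (SE 0.62) and 0.33 (SE 0.67), and PFKM (ENSDARG00000014179) had 0.15 (SE 0.54). PFKP (ENSDARG00000012801) had -0.60 (SE 0.67).

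From aldolase to enolase, the log2 fold change was below 0 for 10 of 14 genes tested and above 0 for 4. Its median was -0.87, and 0 had an unadjusted edgeR p under 0.05. The summed level of these 15 identifiers was 2549, 3459 and 4294 CPM in wildtype and 1293.5, 3946 and 1844 CPM in morphants. Morphant replicate 2 thus lay inside the wildtype range and the other morphants below it. The leukocyte sums given above had the same libraries low and high, and the part of those cells in these values was not tested. Aldolase splits the 6-carbon sugar. ALDOA (ENSDARG00000011665), its main identifier here, had 739, 955 and 1061 CPM in wildtype and 401, 901 and 533 CPM in morphants, for a log2 fold change of -0.82 (SE 0.36, adjusted p = 0.393 by edgeR). ALDOC (ENSDARG00000019702), the brain type of mammals, had 118, 179.6 and 159.8 CPM in wildtype and 34.7, 264 and 117 CPM in morphants, for a log2 fold change of -0.92 (SE 0.72). Its highest and its lowest library were both morphant. ALDOA (ENSDARG00000034470) averaged 142 ± 35.0 CPM in wildtype and 158 ± 96.9 CPM in morphants (n = 3 each, SD), for a log2 fold change of 0.24 (SE 0.57).

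TPI1 (ENSDARG00000040988), the triose phosphate isomerase, had 256, 383 and 475 CPM in wildtype and 119, 395 and 131 CPM in morphants. Its log2 fold change was -1.14 (SE 0.51, adjusted p = 0.393 by edgeR). The other TPI1 identifier (ENSDARG00000025012) was lower per length, 3.60 against 108 RPKM in wildtype, with a log2 fold change of -0.72 (SE 0.57).

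Glyceraldehyde phosphate dehydrogenase had a gene on each side of 0. GAPDHS, whose mammalian counterpart is known from sperm, was the highest of the set per length in wildtype, with 619 ± 319 RPKM (SD, n = 3), rank 116 among all identifiers. It had 522, 809 and 1419.7 CPM in wildtype and 87.3, 1269.9 and 249 CPM in morphants, for a log2 fold change of -1.91 (SE 0.83, adjusted p = 0.393 by edgeR). GAPDH, the gene used as a reference in many assays, had 156, 161 and 165 CPM in wildtype and 266, 162 and 168 CPM in morphants. Except for morphant replicate 1 its values lay within 156 to 168 CPM, and its log2 fold change was 0.37 (SE 0.30), or 0.76 when scaled by library totals alone and -0.08 within the TruSeq libraries.

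Phosphoglycerate mutase and enolase also had genes on both sides of 0. The gene pgam1a had 184, 269 and 224 CPM in wildtype and 58.7, 210.5 and 72.1 CPM in morphants, for a log2 fold change of -1.30 (SE 0.57), and pgam1b had -1.04 (SE 0.58). PGAM2, the muscle type of mammals, had 3.74, 6.28 and 9.35 CPM in wildtype and 15.5, 3.83 and 16.6 CPM in morphants. Its log2 fold change was 0.87 (SE 0.65), and the skeletal muscle sums were high in the same 2 morphant libraries, with their part in this value not tested. ENO3, the muscle type of enolase in mammals, ran the other way. It had 247, 391 and 474 CPM in wildtype and 77.5, 493 and 151 CPM in morphants, for a log2 fold change of -1.30 (SE 0.64), and was the highest enolase per length in wildtype, at 44.1 ± 14.5 RPKM (SD, n = 3). ENO1 (ENSDARG00000022456), the broadly expressed type, had 77.6, 73.7 and 122 CPM in wildtype and 62.7, 84.0 and 96.6 CPM in morphants. Its groups overlapped, with a log2 fold change of -0.35 (SE 0.28), and 0.04 when scaled by library totals alone. The neuronal type eno2 had 7.48, 3.86 and 4.23 CPM in wildtype and 6.59, 7.51 and 12.2 CPM in morphants, for a log2 fold change of 0.72 (SE 0.54). ENO1 (ENSDARG00000013750) had 1.57 RPKM in wildtype and a log2 fold change of -1.30 (SE 0.75).

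LDHB, the lactate dehydrogenase subunit typical of heart in mammals, had 309.9, 424 and 598 CPM in wildtype and 329, 464 and 264 CPM in morphants. The groups overlapped, and the log2 fold change was -0.44 (SE 0.36), and -0.07 when scaled by library totals alone. Per length LDHB came next in wildtype, at 266 ± 91.9 RPKM, after GAPDHS and PGD (431 ± 72.6 RPKM) and close to ALDOA (ENSDARG00000011665) at 256 ± 51.5 RPKM (n = 3 each, SD). LDHB and this ALDOA gene did not differ beyond their spread.

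In the pentose phosphate pathway the 3 genes measured did not share a direction. PGD, the phosphogluconate dehydrogenase that yields NADPH, had 711, 950.3 and 874 CPM in wildtype and 186, 751 and 308 CPM in morphants. Its mean was 845 ± 122 CPM in wildtype and 415 ± 297 CPM in morphants (n = 3 each, SD), for a log2 fold change of -1.44 (SE 0.55, adjusted p = 0.393 by edgeR). Morphant replicate 2 was inside the wildtype range. RPIA, the ribose phosphate isomerase, had 31.4, 30.8 and 26.1 CPM in wildtype and 141, 19.8 and 46.6 CPM in morphants, for a log2 fold change of 1.27 (SE 0.51, adjusted p = 0.393 by edgeR). Morphant replicate 2 was below every wildtype library and the other morphants above, and within the TruSeq libraries the log2 fold change was 0.25. TKT, a transketolase, was near the filter on low counts, with 4 to 50 counts a library. It had 0.853, 0.792 and 0.256 CPM in wildtype and 2.11, 0.431 and 2.61 CPM in morphants, for a log2 fold change of 1.85 (SE 0.85).

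**Figure D3:**
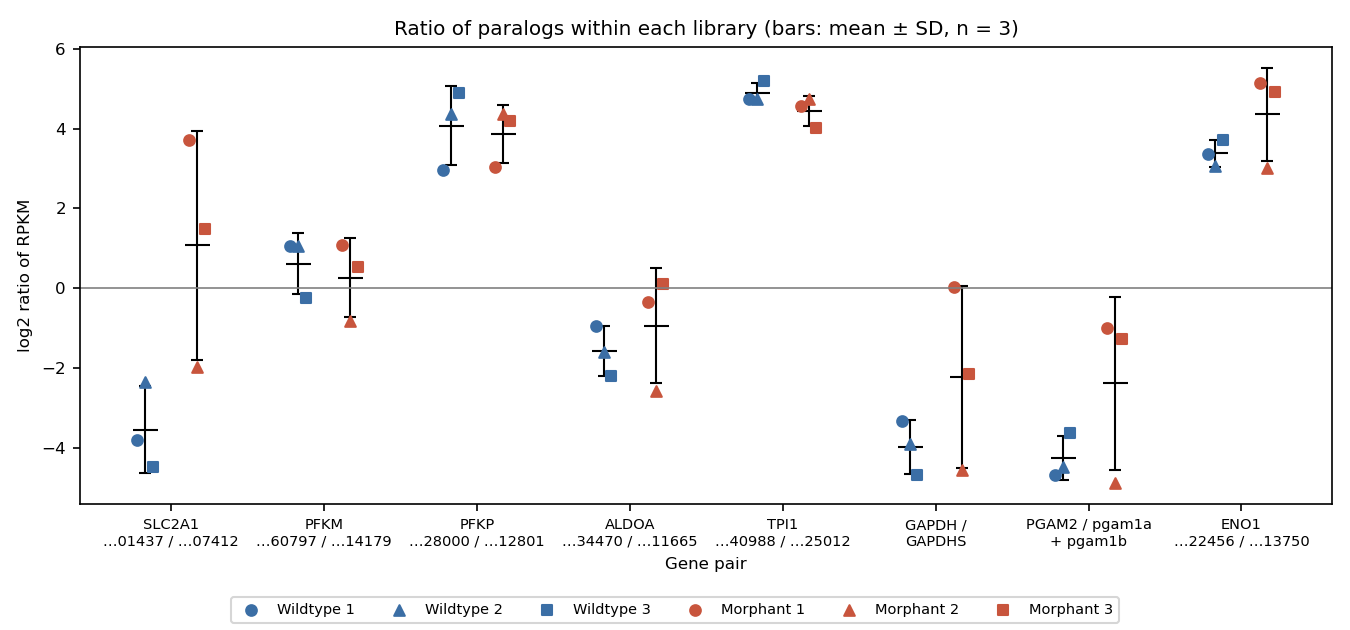
Log2 ratio of the authors' RPKM values between the genes of 8 pairs, within each library (blue, wildtype; red, morphant; circle, triangle and square, replicates 1, 2 and 3), with bars for the mean ± SD of 3 libraries. In the first pair all morphant points lie above all wildtype points; in the other 7 pairs the groups overlap.

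The balance between genes of the same step was compared as a ratio within each library, which no scaling of libraries can move. Among 8 such pairs, chosen after the values were seen, the groups did not overlap in 1. The ratio of SLC2A1 (ENSDARG00000001437) to SLC2A1 (ENSDARG00000007412) in RPKM was 0.0725, 0.196 and 0.0452 in wildtype and 13.1, 0.256 and 2.79 in morphants. The log2 ratio differed by 4.61 between groups (two-sided exact permutation p = 0.1, the smallest that 3 against 3 allows, Benjamini-Hochberg adjusted p = 0.64 over the 8 pairs). The difference was 6.78 within the mRNA-Seq and 4.22 within the TruSeq libraries. The ratio of GAPDH to GAPDHS was 0.100, 0.0667 and 0.0390 in wildtype and 1.02, 0.0428 and 0.226 in morphants. Morphant replicate 2 was inside the wildtype range and the other morphants above it, with a difference in log2 ratio of 1.75 (two-sided exact permutation p = 0.3, adjusted 0.64). PGAM2 against the sum of pgam1a and pgam1b had ratios of 0.0395, 0.0454 and 0.0807 in wildtype and 0.502, 0.0341 and 0.415 in morphants, a log2 difference of 1.87 (two-sided exact permutation p = 0.4, adjusted 0.64). The log2 differences of the other 5 pairs lay between -0.45 and 0.98, with two-sided exact permutation p between 0.3 and 0.8.

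With morphant replicate 2 left out, edgeR called 12 of the 28 genes. These were 10 lower genes (35.7%, where the background was 11.5% of 19034 genes), namely GPI, PFKP (ENSDARG00000028000), ALDOA (ENSDARG00000011665), TPI1 (ENSDARG00000040988), GAPDHS, pgam1a, pgam1b, ENO1 (ENSDARG00000013750), ENO3 and PGD. The 2 higher genes (7.14%, background 8.19%) were SLC2A1 (ENSDARG00000001437) and RPIA. In that fit the log2 fold change was -2.79 for GAPDHS and 4.77 for SLC2A1 (ENSDARG00000001437), each with an edgeR adjusted p of 0.00971. For the latter, leaving out any of the other 5 libraries gave an edgeR adjusted p between 0.266 and 0.9998. The library left out is the one nearest to wildtype in these genes, so the count describes the other morphant libraries. HK1, with a log2 fold change of -0.81 there, did not pass (edgeR adjusted p = 0.117).

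**Figure D4:**
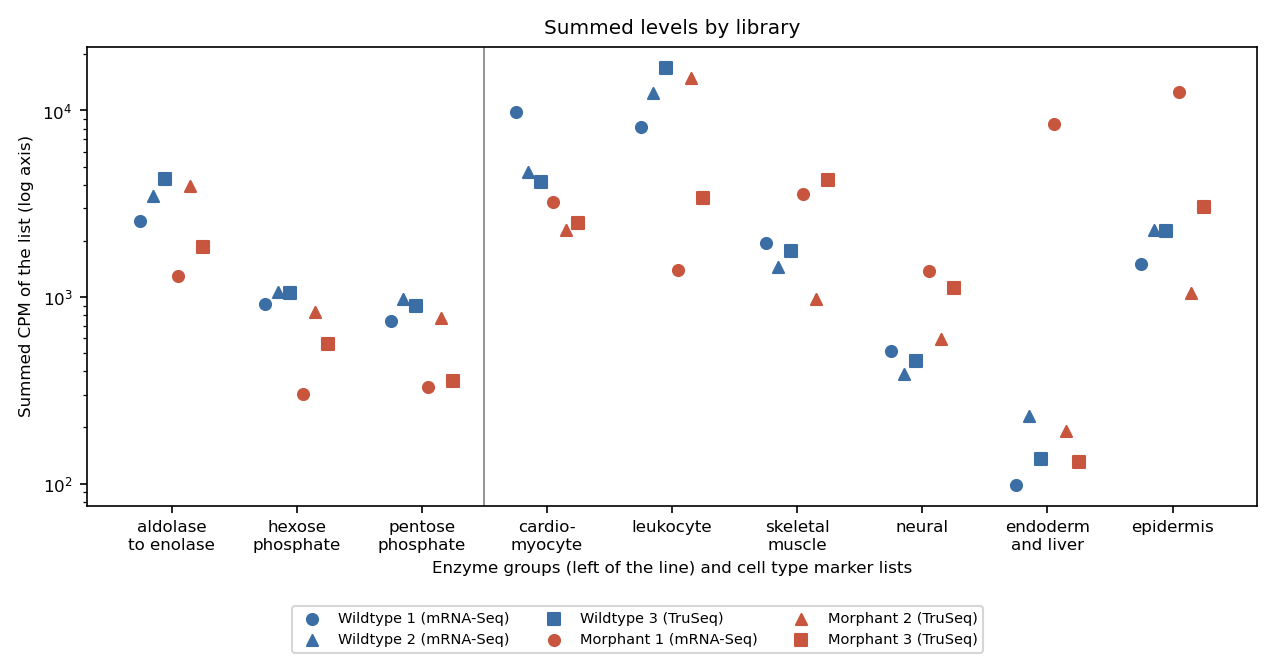
Summed CPM, on a log axis, of 3 enzyme groups (left of the line) and 6 lists of cell type markers (right) in each library (blue, wildtype; red, morphant; circle, triangle and square, replicates 1, 2 and 3). The sums of the enzyme groups and the leukocyte markers have morphant replicates 1 and 3 lowest. The hexose phosphate group and the cardiomyocyte markers are lower in all 3 morphants than in any wildtype library. Most of the pentose phosphate sum is PGD, while RPIA and TKT are above the wildtype range in morphant replicates 1 and 3.

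The summed levels set these enzymes beside the cell type markers. Pentose phosphate genes summed to 743, 982 and 900.2 CPM in wildtype and 329.6, 771 and 357 CPM in morphants. PGD made up most of this sum, with 711, 950.3 and 874 CPM in wildtype and 186, 751 and 308 CPM in morphants. RPIA and TKT went the other way, with morphant replicates 1 and 3 above every wildtype library. Hexose phosphate genes summed to 913, 1069 and 1049.8 CPM in wildtype and 302, 827 and 561 CPM in morphants. In the hexose phosphate group morphant replicate 2 was below the wildtype range too. Cardiomyocyte markers (20 identifiers, of which 1 TNNI1 identifier was at 0 in a whole group) had another order, with 9795, 4708 and 4155 CPM in wildtype and 3219.98, 2289 and 2488 CPM in morphants. Their part in the enzyme values was not tested.

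Other genes of the same pathways, from lists chosen by role, were also without an adjusted call. For 11 further sugar and lactate carriers tested, the median log2 fold change was -0.41. At an unadjusted edgeR p under 0.05, 0 were higher (background 7.62%) and 1 was lower (background 4.92%). That gene, slc2a3b, had 21.7, 23.8 and 56.6 CPM in wildtype and 5.96, 42.5 and 14.0 CPM in morphants, for a log2 fold change of -1.46 (SE 0.54, adjusted p = 0.393 by edgeR), opposite in sign to slc2a3a. SLC2A6, a carrier known from macrophages in mammals, had 434, 273 and 782 CPM in wildtype and 21.8, 799 and 56.0 CPM in morphants, with the same libraries low as the leukocyte markers. SLC2A12 had a log2 fold change of 1.17 (SE 0.62) and SLC16A3 (ENSDARG00000028583), a lactate carrier, 1.66 (SE 0.88). The levels of SLC16A3 were low, with 0.0656, 0.898 and 0.384 CPM in wildtype and 1.74, 1.52 and 0.625 CPM in morphants. Its groups overlapped.

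For 15 further glycolytic enzymes and regulators tested, the median log2 fold change was -0.34. At an unadjusted edgeR p under 0.05, 3 were higher (background 7.62%) and 0 were lower (background 4.92%). PKLR, the pyruvate kinase of liver and red cells, had 1.38, 0.845 and 0.961 CPM in wildtype and 29.6, 0.920 and 2.45 CPM in morphants. Its high value was in morphant replicate 1, the library high in endoderm and liver markers, whose part in it was not tested. The regulator gene pfkfb1 had 1.84, 1.27 and 1.41 CPM in wildtype and 4.85, 1.90 and 6.93 CPM in morphants. It was the 1 gene of the 15 with every morphant library above every wildtype library (background 7.76%). HKDC1, a hexokinase relative, had a log2 fold change of 1.94 (SE 0.79) and ADPGK, a glucokinase that uses ADP, -0.93 (SE 0.40). Of 6 further pentose phosphate genes 0 passed that level. Their log2 fold changes included 0.93 (H6PD), 0.68 (PGLS) and 0.58 (prps1b).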

How the data were processed

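Per the file headers and the values, the deposited table holds unnormalized counts for each Ensembl gene and library. The RPKM values deposited by the authors follow the count after adding 1 (100% of values, within 1%). The fold (ratio) and the p-values deposited by the authors come, per the file headers, from their comparison of wildtype with morphant, and are quoted only where named. CASAVA 1.7.0, BWA, DESeq and the build Zv9 are named in the submitters' processing notes without a role. Which program counted reads, with which annotation and whether by strand, is not given in the sources used here. Reads shared by close paralogs may have been split or dropped, and paralog values are uncertain to that degree. A gene name table gave symbols (19189 of 27456 identifiers, 69.9%).

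The main test was that of edgeR 4.0.16 (R 4.3.3), with TMM scaling, filterByExpr by group, terms for kit and group, two-sided quasi-likelihood F test and 3 residual degrees of freedom. Benjamini-Hochberg adjustment ran over all 18033 genes tested, with a threshold of 0.05. The biological coefficient of variation was 0.470. DESeq2 1.42.0, limma-voom (limma 3.58.1), other scalings, no filter, no kit term, each kit alone, summed paralogs and leaving out each library were alternatives. The fit was tested on simulated data. All 29 identifiers are described, and values in every library are given for those with an unadjusted p under 0.05, without overlap of groups, or highest per length in their family. From each further pathway list up to 4 genes with the smallest p are named, except 1 that is not reported here. Members and lists were chosen with earlier results of these data known. No sequence is shown.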

Additional observations from a re-analysis of the deposited data

How the results depend on the processing

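No paired analysis was possible because the replicate numbers used here only name the libraries in the order of deposit, and the labels pair no wildtype with a morphant library. The number of all genes called was 0 in edgeR, 293 in DESeq2, 44 without a filter on low counts, 4352 in the mRNA-Seq libraries alone, 1 in the TruSeq libraries alone, and 0 to 3745 when each library was left out, the 3745 being without morphant replicate 2. In each kit alone 1 group has a single library, assumed to vary like the other group. The number of genes of the set called was 0, and 1 in DESeq2, 1 without a filter, 14 in the mRNA-Seq libraries alone and 0 to 12 when each library was left out. The number above every wildtype library was 1, and 2 without a filter, 0 with paralogs summed, 6 in the mRNA-Seq and 5 in the TruSeq libraries alone, and 1 to 4 with a library left out. The number below was 1, and 17, 10 and 1 to 15 in the same order of kits and left-out libraries. Over all genes in the mRNA-Seq libraries alone, 8878 of 19818 were above and 7797 below. In the TruSeq libraries alone, 5698 of 19609 were above and 5467 below. Groups without overlap were thus common across the whole table within a single kit. The 4 above and the 15 below were both reached without morphant replicate 2. Over all genes too, groups without overlap were more common with any library left out than with all libraries. They were most common there without morphant replicate 2, so the counts of the set are not a trait of these genes alone. The median log2 fold change of the set was -0.66, and -0.31 with library totals alone, -0.37 without a kit term, -1.21 and -0.15 within the mRNA-Seq and TruSeq libraries, and -1.18 to -0.14 with a library left out. The causes were not tested.

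Of 392 single-gene values under alternatives, 341 kept sign and side of the threshold, 23 changed sign and the rest newly passed the threshold. The main fit called 0 genes, so a change of sign could fall only in genes not called there. With library totals alone ENO1 (ENSDARG00000022456) was 0.040, in limma-voom PFKL was -0.018, and without a kit term PFKM (ENSDARG00000060797) was -0.17. Within the mRNA-Seq libraries PFKM (ENSDARG00000014179) was -0.083, PFKM (ENSDARG00000060797) -0.045, ALDOA (ENSDARG00000034470) -0.22 and PFKL -0.0078. Within the TruSeq libraries SLC2A1 (ENSDARG00000007412) was 0.071, PFKP (ENSDARG00000012801) 0.089, ALDOC (ENSDARG00000019702) 0.20 and GAPDH -0.076. In the same order, these genes were at -2.87, -1.42, -2.17 and 0.68 within the mRNA-Seq libraries. With each library left out in turn, the range was -0.054 to 0.25 for PFKM (ENSDARG00000014179), -0.27 to 0.59 for PFKM (ENSDARG00000060797), -0.41 to 0.56 for ALDOA (ENSDARG00000034470) and -0.43 to 0.41 for PFKL. It was -2.84 to 0.086 for SLC2A1 (ENSDARG00000007412), -1.39 to 0.10 for PFKP (ENSDARG00000012801), -2.14 to 0.22 for ALDOC (ENSDARG00000019702) and -0.054 to 0.70 for GAPDH, each with its change of sign without morphant replicate 1. For the ratios the alternatives were chosen after seeing the data. The log2 difference of the PFKM ratio was 0.031 and 0.11 within the mRNA-Seq and TruSeq libraries and -0.79 to 0.20 with a library left out, and that of the PFKP ratio -0.75 to 0.21. Depth limits TKT, PFKM and ALDOC (ENSDARG00000057661), with few counts a library.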

Other observations

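Enzymes that run glucose metabolism in reverse or store glucose were compared too. Of 16 gluconeogenesis and glycogen genes tested, 0 passed adjusted. At an unadjusted edgeR p under 0.05, 1 was higher (background 7.62%) and 0 were lower (background 4.92%). That gene, fbp1b, a fructose bisphosphatase, had 143 CPM in morphant replicate 1 and at most 2.17 CPM in any other library. G6PC1, the glucose phosphatase of liver, had 48.9 CPM there against 1.98 to 3.44 CPM in the other libraries. The summed level of the 10 endoderm and liver markers was high in the same library, and the part of such cells in these values was not tested. The glycogen phosphorylases stood on both sides. PYGB, the brain type, had 494, 621 and 624 CPM in wildtype and 128, 657 and 209 CPM in morphants. PYGM, the muscle type, had 14.0, 14.3 and 17.9 CPM in wildtype and 41.6, 11.1 and 55.1 CPM in morphants.

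Genes that take pyruvate into mitochondria were near 0 as a group, with 15 tested and a median log2 fold change of 0.02, and MPC2, a pyruvate carrier subunit, was the 1 gene higher at an unadjusted edgeR p under 0.05 (0.0160, log2 fold change 2.59), with 44.9 CPM in morphant replicate 1 against 1.90 to 5.26 CPM elsewhere. Among 16 hypoxia factors and targets the median was -0.12. At an unadjusted edgeR p under 0.05, 1 was higher (background 7.62%) and 1 was lower (background 4.92%). NDRG1, a gene induced by low oxygen, had 436, 714 and 591 CPM in wildtype and 113, 337 and 232 CPM in morphants. Its log2 fold change was -1.70 (SE 0.46, adjusted p = 0.393 in edgeR). In 2 of the 16, NDRG1 among them, every morphant library was below every wildtype library (background 5.78%). DESeq2 called 1 of the 16, NDRG1, as lower (adjusted p = 0.0415, background 0.943%) and 0 as higher (background 0.682%). EPAS1 (ENSDARG00000008697), a hypoxia-inducible factor, had 5.06 to 10.4 CPM in wildtype and 107, 2.93 and 17.1 CPM in morphants (log2 fold change 2.38, SE 0.85, adjusted p = 0.393 in edgeR).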
